A study of Mus musculus with 6 samples.

Results

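Semaphorins are guidance ligands and plexins and neuropilins are their receptors. The genes described here are the 33 of 21937 symbols in the authors' deposited table that belong to these families by name. They comprise 20 semaphorins of classes 3 to 7, 9 plexins, the neuropilins Nrp1 and Nrp2, and Plxdc1 and Plxdc2, which are named for a plexin domain and are kept apart from the receptors below. The samples came from the cortex of mouse embryos that received, by in utero electroporation at embryonic day 14.5, a plasmid for an shRNA against Nat14 (shNat14, 3 libraries) or for a control shRNA (NTC, 3 libraries). Both groups were collected at embryonic day 18.5, and live GFP-positive cells of the dissected cortex were sorted for RNA sequencing. Each group is thus a mixture of all GFP-positive cortical cells, in which fewer cells of a type and less RNA per cell cannot be told apart. Whether the libraries of a group are separate embryos, litters or pools is not stated in the labels, and the p-values therefore rest on a spread between libraries that may be only technical.

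Class 3 semaphorins are secreted, whereas those of classes 4 to 6 cross the membrane and Sema7a is held in it by a lipid anchor. Most class 3 ligands bind a neuropilin that pairs with an A-type plexin, while the membrane-bound classes bind plexins directly. The inner part of a plexin acts on small GTPases and, through them, on the cytoskeleton of the growth cone. In the developing cortex the system is known for steering axons, for repelling or attracting migrating neurons and for orienting dendrites.

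The values are those of the authors' own comparison, giving per gene a log2 fold change, the mean log2 CPM (counts scaled to a common library size) over the libraries, a p-value and an adjusted p. Single libraries have no values in the table. Library depth is therefore unknown, and neither SDs nor the overlap of the groups can be given. Fold changes are shNat14 relative to NTC, a direction taken from the sign of Nat14, the target of the shRNA, since no column name gives it. Nat14 had a log2 fold change of -3.31 per the authors' deposited table (adjusted p = 1.2e-08). All 11 deep-layer and all 10 upper-layer neuron markers matched lay above the lowest level of the table. Their mean log2 CPM ran from 2.06 to 6.43 and from 1.67 to 8.996 per the authors' deposited table. This is no check of the labelled tissue, since 17400 of 21937 rows lay above the lowest level. The matched markers of all other cell types examined did so too.

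Among the ligands, 4 class 3 genes lie near each other on chromosome 5 in the RefSeq gene order of the mouse assembly GRCm38.p6. Sema3d and Sema3a are adjacent protein-coding genes there, 3 others separate Sema3a from Sema3e, and 15 separate Sema3e from Sema3c. Their start regions are shown because this group holds the ligand of the highest level (Sema3c), the ligand with the smallest p at or above the median level (Sema3a) and the ligand with the lowest fold change (Sema3e). Each line gives the 250 bases before a RefSeq start, 5′ to 3′ along the gene. Capitals mark the motifs searched on both strands, the GC box GGGCGG, the CCAAT box CCAAT, the TATA box TATAAA and the E-box CAGCTG.
Sema3d: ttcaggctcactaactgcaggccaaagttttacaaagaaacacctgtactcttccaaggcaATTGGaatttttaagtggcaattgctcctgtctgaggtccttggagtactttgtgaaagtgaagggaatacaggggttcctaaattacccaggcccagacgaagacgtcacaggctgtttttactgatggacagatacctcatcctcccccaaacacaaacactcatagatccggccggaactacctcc
Sema3a: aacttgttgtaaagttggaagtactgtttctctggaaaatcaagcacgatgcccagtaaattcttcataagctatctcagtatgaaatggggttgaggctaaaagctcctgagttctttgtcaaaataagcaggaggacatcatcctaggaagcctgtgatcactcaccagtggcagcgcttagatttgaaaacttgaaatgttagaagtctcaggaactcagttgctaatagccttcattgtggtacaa
Sema3e: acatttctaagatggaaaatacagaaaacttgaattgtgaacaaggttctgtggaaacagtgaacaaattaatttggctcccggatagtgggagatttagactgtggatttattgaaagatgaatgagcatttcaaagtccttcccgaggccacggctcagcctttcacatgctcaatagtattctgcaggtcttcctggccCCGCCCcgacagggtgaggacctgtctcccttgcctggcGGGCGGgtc
Sema3c: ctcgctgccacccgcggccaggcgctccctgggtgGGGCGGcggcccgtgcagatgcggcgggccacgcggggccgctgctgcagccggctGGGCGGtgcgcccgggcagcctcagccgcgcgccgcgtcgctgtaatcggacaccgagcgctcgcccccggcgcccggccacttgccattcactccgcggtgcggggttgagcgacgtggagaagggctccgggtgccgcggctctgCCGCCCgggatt
The windows lie on the plus strand of GRCm38.p6 at chr5:12382916-12383165, chr5:13396534-13396783, chr5:14025026-14025275 and chr5:17574566-17574815. A gene can have other starts that are not shown.

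The 4 windows differ in composition. That of Sema3c held 39 CpG dinucleotides, 78.4% G or C and 3 GC boxes, and 98.4% of all windows of this length held fewer CpG dinucleotides. Those of Sema3d, Sema3a and Sema3e held 4, 2 and 7 CpG dinucleotides and 46.8%, 40.8% and 48.0% G or C. The Sema3e window held 2 GC boxes, the Sema3d window 1 CCAAT box, and the Sema3a window none of the 4 motifs. Windows were matched for 26 of the 33 genes, 37 windows in all, and those of the same gene can overlap. A GC box was in 27 of these 37 windows and in 32.7% of all 32851 windows in the RefSeq table. The TATA box was in 0 of the 37 and in 12.4% of all, the CCAAT box in 7 and in 33.8%, and the E-box in 6 and in 13.0%. The windows of these genes had a median of 13 CpG dinucleotides, against 6 over all windows. A match is a run of letters and not a bound site.

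Levels were compared between genes per kilobase of exon, with CPM taken back from the authors' mean log2 CPM. The best-represented receptor was Nrp1, the co-receptor through which Sema3a acts, at 107 CPM per kb, above 96.3% of the 18271 genes with an exon length. The plexin of the highest level was Plxna2, a partner of the neuropilins and a receptor of class 6 semaphorins, at 31.8 CPM per kb. Among ligands Sema3c stood first at 64.6 and Sema3a next at 21.1 CPM per kb. Sema4b followed at 9.24 and Sema5b, a transmembrane ligand with thrombospondin repeats, at 8.44 CPM per kb. Secreted ligands stood at both ends of the order, since Sema3g, Sema3d and Sema3e lay at 0.041, 0.19 and 0.42 CPM per kb. The mean log2 CPM of Sema3g, -2.43, is close to the lowest level of the table (-3.09), so its value is hardly a measured level.

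Receptors below Plxna2 were Plxnb2 at 10.8, Plxna4 at 8.18, Plxna3 at 6.82, Plxnb1 at 4.97, Plxnc1 at 3.83 and Plxna1 at 1.84 CPM per kb. Nrp2, the co-receptor of Sema3f, stood at 0.83 CPM per kb, under the median of all genes (1.31). The endothelial plexin Plxnd1 and the plexin Plxnb3 were lower still, at 0.32 and 0.11 CPM per kb. The median was 1.76 CPM per kb over the 20 ligands and 4.97 over the 11 receptors, with 12 ligands and 8 receptors above the median of all genes. With lengths of the longest transcript in place of all exons, the first 4 ligands and all 11 receptors kept their places. For most receptors, Nrp1 and Plxna2 among them, both lengths were the same, so the receptor order could hardly change. These lengths come from GENCODE M21, which may not be the annotation the authors counted on.

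**Figure D1:**
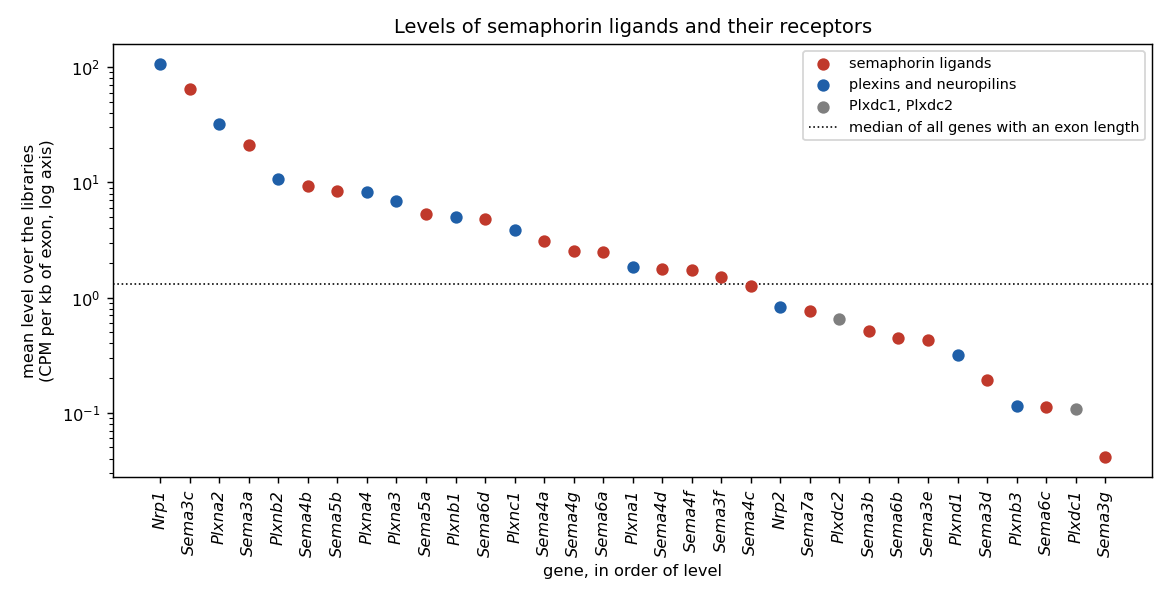
Mean level of each of the 33 genes over the libraries, in CPM per kb of exon on a log axis, in order from highest to lowest; red points are ligands, blue points plexins and neuropilins, grey points Plxdc1 and Plxdc2, and the dotted line is the median of all genes with an exon length. Nrp1 (107) and Sema3c (64.6) stand at the top and Sema3g (0.041), whose mean is close to the lowest level of the authors' deposited table, at the bottom.

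The comparison asked which of these genes differed in level between cells with the Nat14 shRNA and cells with the control. None of the 33 passed adjusted p under 0.05 per the authors' deposited table, against 0.155% of all rows, and their adjusted p was 1 in every case. None had an unadjusted p under 0.05 per the authors' deposited table either, a threshold passed by 5.04% of all rows and by 5.91% of genes at or above the median mean level. At an unadjusted p under 0.1 there were 3 members, all ligands, against 8.98% of all rows per the authors' deposited table. These were Sema6c, Sema3e and Sema3a, described below with the other members of their class.

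The authors' deposited table placed 23 of the 33 genes no lower than the median level of its rows, a log2 CPM of 1.71. Their log2 fold changes ran from -0.44 for Sema4g to 0.54 for Sema4b per the authors' deposited table. The other 10 genes ranged from -1.36 to 4.28 per the authors' deposited table. At such levels the size of a fold change moves with the prior count used in its fit, which is not given in the sources used here. No gene of the families sat at the lowest level of the table (log2 CPM -3.09), which 4537 rows share.

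**Figure D2:**
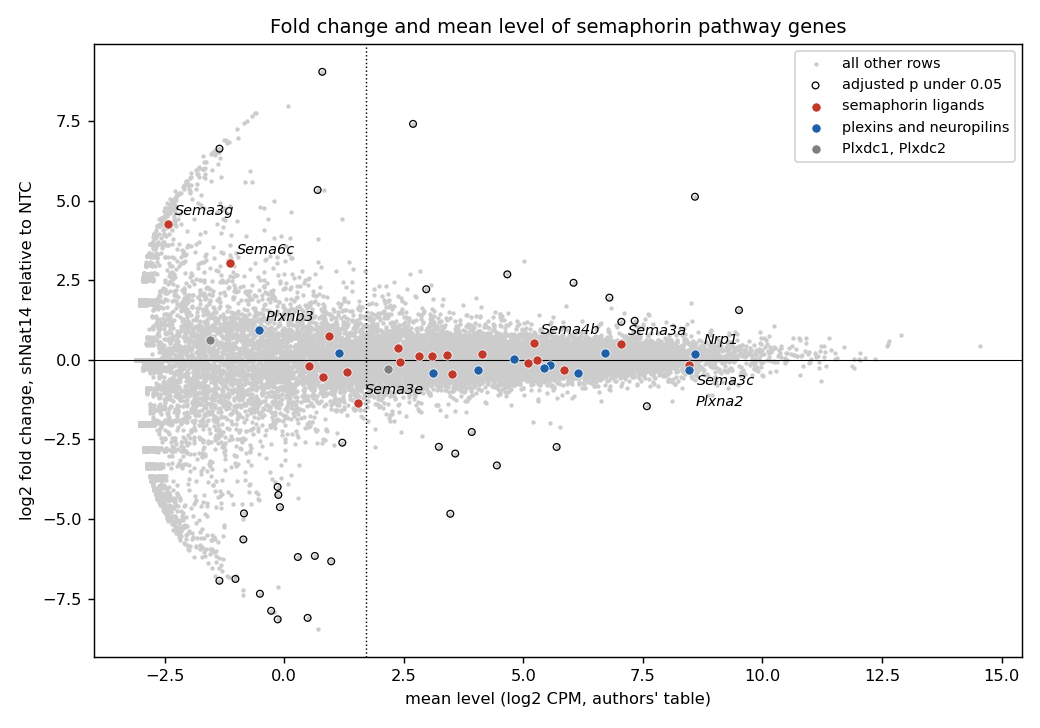
Log2 fold change of shNat14 relative to NTC (vertical axis) against mean level in log2 CPM (horizontal axis) for all 21937 rows of the authors' deposited table. Coloured points are the 33 genes, open circles the 34 rows with adjusted p under 0.05, and the dotted line the median level. To the right of that line the coloured points lie between -0.44 and 0.54, and none carries a circle.

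To show what size of difference the p-values leave possible, a standard error was implied from each fold change and its p under a normal approximation where the mean level reached the median, which gave 22 of 23 such genes an interval. The exception was Sema5b, whose p was 1. The implied standard errors ran from 0.25 to 0.88 on the log2 scale, smallest for Nrp1 and largest for Sema4c. Each interval contains 0 by construction, since every p was above 0.05, so only its width adds information. The intervals of 9 genes lay within -1 and 1, that is within a doubling or a halving. The 9 were Sema3c, Sema6a, Sema6d, Nrp1, Plxna2, Plxna3, Plxna4, Plxnb1 and Plxnc1. These intervals are approximate, since the authors' test is not known. They are least certain where the fold change is near 0 and p near 1, because small changes in either then move the implied error strongly. This holds for Sema4c (p = 0.93) and Plxnc1 (p = 0.932) in the authors' test.

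The 200 genes nearest each member in mean level show which sizes of change reached an unadjusted p under 0.05 in the authors' test. Near Nrp1, Sema3c and Plxna2 the smallest absolute log2 fold change with such a p was 0.55. Near Nrp2 it was 0.92 and near Plxnd1 1.19. Each value is a minimum over the neighbours that passed, 13 of 200 near Nrp1, and is no detection limit for the member.

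Among the secreted ligands, Sema3a, the classical growth cone collapsing factor, had a log2 fold change of 0.49 per the authors' deposited table, or 140% of the control level (p = 0.0686, mean 131 CPM). Its implied 95% interval ran from -0.037 to 1.02. Sema3c, an attractant for some cortical axons, stood at -0.16 per the authors' deposited table (p = 0.53, mean 355 CPM), with an implied interval of -0.66 to 0.34. The ligands of the highest level thus had opposite signs, and the difference between them was not tested.

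Sema3e, which can bind Plxnd1 without a neuropilin, had a log2 fold change of -1.36 per the authors' deposited table, or 39.0% of the control level (p = 0.0627). Its mean level was 2.91 CPM, below the median. Its receptor Plxnd1 stood at 0.20 per the authors' deposited table (p = 0.81, mean 2.21 CPM). Sema3f, a ligand of Nrp2, stood at 0.36 and Sema3b, its close neighbour on chromosome 9, at 0.74 per the authors' deposited table (p = 0.605 and 0.293). Sema3d stood at -0.19 per the authors' deposited table (p = 0.9). Sema3g, a ligand known from blood vessels, was listed at 4.28 per the authors' deposited table (p = 0.143), at a mean log2 CPM of -2.43 that is close to the lowest level. Of the 7 class 3 ligands, 4 lay above and 3 below 0, where 52.4% of the 17400 genes above the lowest level lay above 0.

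The 6 class 4 ligands all lay at or above the median level. Sema4b had the highest fold change of them, 0.54 per the authors' deposited table (p = 0.16, mean 37.2 CPM), with an implied 95% interval of -0.21 to 1.30. Sema4g had the lowest, -0.44 per the authors' deposited table (p = 0.289), with an implied interval of -1.24 to 0.37. Sema4a, Sema4d, a ligand of Plxnb1, and Sema4f lay between 0.11 and 0.14 per the authors' deposited table, with p from 0.803 to 0.815. Sema4c, a ligand of Plxnb2, stood at -0.077 per the authors' deposited table (p = 0.93), with the widest implied interval of all, -1.80 to 1.64.

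The class 5 ligands Sema5a and Sema5b, which can act through A-type plexins, stood at -0.32 and -0.0011 per the authors' deposited table (p = 0.348 and 1). For Sema5a the implied interval ran up to 0.35. Of class 6, whose members bind A-type plexins from the surface of other cells, Sema6a and Sema6d stood at 0.19 and -0.10 per the authors' deposited table (p = 0.647 and 0.779). Sema6b stood at -0.52 per the authors' deposited table (p = 0.44) at a mean of 1.76 CPM. Sema6c had the smallest p of all 33 genes, with a log2 fold change of 3.05 per the authors' deposited table (p = 0.0526), but its mean level was 0.46 CPM. Sema7a, which binds Plxnc1 and integrins, stood at -0.38 per the authors' deposited table (p = 0.576, mean 2.50 CPM).

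Fold changes of the receptors at or above the median level ran from -0.41 to 0.20 per the authors' deposited table. Nrp1 had a log2 fold change of 0.17 per the authors' deposited table, or 113% of the control level (p = 0.489, mean 385 CPM), with an implied 95% interval of -0.31 to 0.66. Nrp2 stood at -0.41 per the authors' deposited table (p = 0.426, mean 8.60 CPM), with an interval of -1.42 to 0.60. Both intervals contain 0, and the difference between the neuropilins was not tested.

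Of the A-type plexins, the signalling partners of the neuropilins, 3 lay below and 1 above 0. Plxna2 stood at -0.31 per the authors' deposited table, or 80.5% of the control level (p = 0.354, mean 351 CPM), with an implied interval of -0.97 to 0.35. Plxna1 and Plxna3 stood at -0.31 and -0.17 per the authors' deposited table (p = 0.534 and 0.68). Plxna4, through which Sema6a and Sema3a signal, stood at 0.20 per the authors' deposited table (p = 0.532), with an implied interval of -0.44 to 0.85.

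Of the B-type plexins, Plxnb1 and Plxnb2 take class 4 ligands. Plxnb2 had the smallest p among all receptors, with a log2 fold change of -0.40 per the authors' deposited table (p = 0.261, mean 70.7 CPM). Its implied interval ran from -1.10 to 0.30. Plxnb1 stood at -0.26 per the authors' deposited table (p = 0.441). Plxnb3 was listed at 0.94 per the authors' deposited table (p = 0.551), at a mean of 0.69 CPM. Plxnc1, the receptor of Sema7a, stood at 0.034 per the authors' deposited table (p = 0.932), with an implied interval of -0.75 to 0.81. The plexin-domain genes Plxdc1 and Plxdc2 stood at 0.63 and -0.30 per the authors' deposited table (p = 0.71 and 0.616), Plxdc1 at a mean of only 0.34 CPM.

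**Figure D3:**
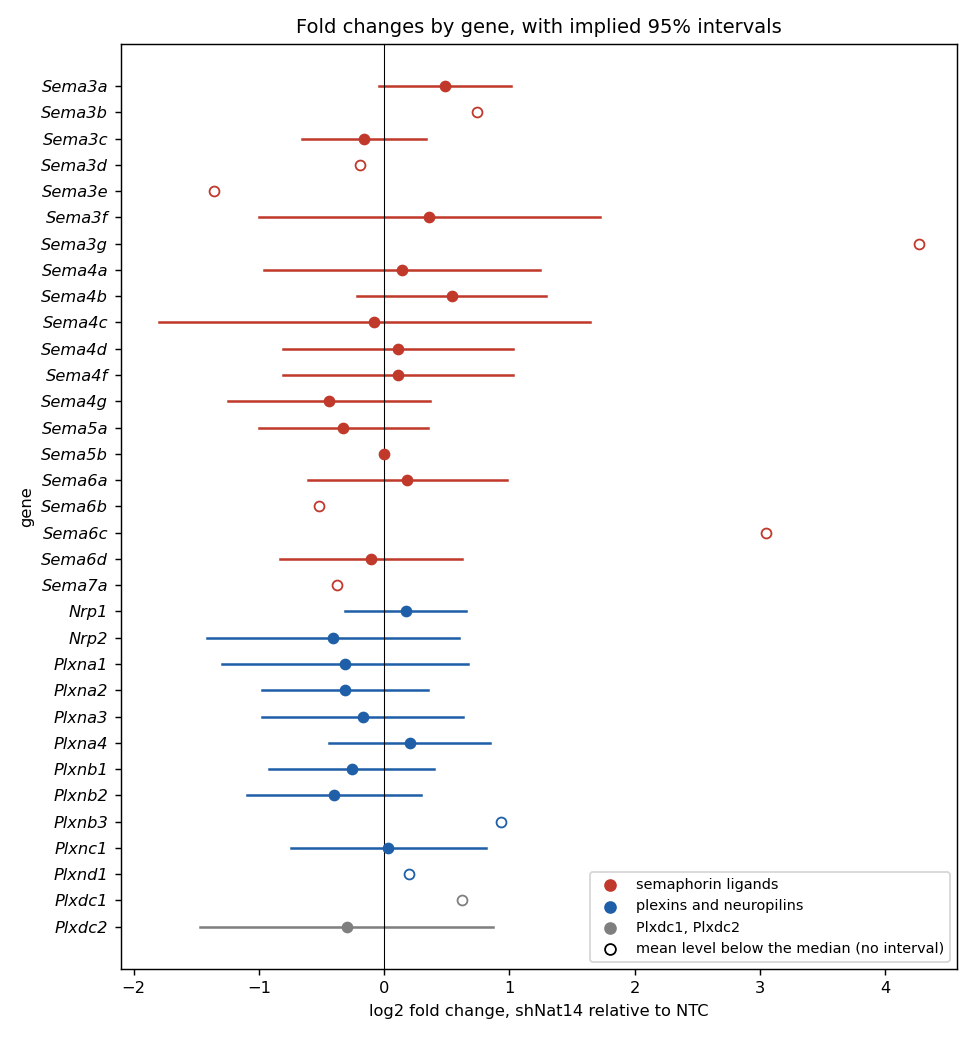
Log2 fold change of each of the 33 genes, shNat14 relative to NTC, ordered by class; filled points are genes at or above the median level with their implied 95% interval as a bar (Sema5b has none), and open points are the 10 genes below it, without an interval. Every bar crosses 0 by construction, as no p was under 0.05, and the open points of Sema3g (4.28), Sema6c (3.05) and Sema3e (-1.36) lie farthest out.

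Ligands and receptors were then set side by side. Of the 20 ligands 10 had a positive and 10 a negative fold change per the authors' deposited table, with a median of 0.054 on the log2 scale. Of the 11 receptors 5 were positive and 6 negative per the authors' deposited table, with a median of -0.17. Of the 17400 genes above the lowest level, where all members lay, 52.4% were positive. At or above the median level, 7 of 13 ligands and 3 of 9 receptors were positive per the authors' deposited table, with medians of 0.11 and -0.26. Over all genes at that level 53.6% were positive and the median was 0.032 per the authors' deposited table. The difference of the medians, ligands minus receptors, was 0.22 for all members and 0.37 at or above the median level. It was not tested, since genes are not replicates. The median absolute fold change was 0.16 for these 13 ligands, 0.26 for the 9 receptors and 0.25 for all genes at that level per the authors' deposited table.

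Other genes of the pathway were taken from lists chosen by role. Of 76 such genes, none was called and 3 had an unadjusted p under 0.05 per the authors' deposited table. Of these, 2 were higher and 1 lower, against 2.79% of all rows higher and 2.25% lower. At or above the median level, where 56 of the 76 lay, 415 of 10969 genes passed as higher and 233 as lower. Rap1b, a small GTPase on which the plexin GAP domain acts, stood at 0.69 per the authors' deposited table (p = 0.0178, adjusted p = 0.781). Gsk3b, a kinase of the Sema3a response, stood at 0.68 per the authors' deposited table (p = 0.0326, adjusted p = 0.922). Cfl1, the actin-severing cofilin at the end of this cascade, stood at -0.48 per the authors' deposited table (p = 0.0476, adjusted p = 0.985). Next in the plexin-bound list of 30 genes was Rasa1, a GTPase-activating protein, at 0.57 per the authors' deposited table (p = 0.0524).

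The 19 other receptors and co-receptors held no gene at unadjusted p under 0.05 per the authors' deposited table. They had 7 positive and 12 negative fold changes and a median of -0.18, where 52.4% of the 17400 genes above the lowest level were positive. The smallest p there were those of Tyrobp, a microglial adaptor, and Kdr, a VEGF receptor that can pair with Nrp1. They stood at -1.04 and 1.89 per the authors' deposited table (p = 0.0766 and 0.0777, means 3.41 and 2.38 CPM). Kdr was among the 8 genes of this list below the median level. Tyrobp, Kdr, Trem2 and Cspg4 of this list are also counted in the marker lists below. The list of kinases and collapsin response mediators had 12 positive and 9 negative values per the authors' deposited table, with a median of 0.037. The collapsin response mediators Dpysl2 and Crmp1, stood at 0.10 and -0.030 per the authors' deposited table (p = 0.725 and 0.937). Of the 6 proteases that cleave semaphorins or their receptors, Adam10 had the smallest p, at 0.57, followed by Pcsk5 at -1.12 per the authors' deposited table (p = 0.0738 and 0.263).

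Cell type markers are given beside these values because many of the genes are used by several cell types. Fold changes were negative for 14 of 15 astrocyte, 13 of 16 microglia, 9 of 12 meningeal fibroblast, 9 of 14 interneuron and 11 of 14 oligodendrocyte lineage markers per the authors' deposited table. The medians of these lists were -0.67, -0.93, -0.77, -0.34 and -0.29. At unadjusted p under 0.05, which 2.25% of all rows passed as lower, 6, 5, 3, 4 and 1 of these markers were lower and none was higher per the authors' deposited table. Among the 17400 genes above the lowest level, where every matched marker lay, 494 passed as lower. The astrocyte marker Agt was the only marker called. Fold changes were positive for 9 of 15 endothelial and 8 of 11 choroid plexus markers, with medians of 0.51 and 0.91 per the authors' deposited table. Of the 17400 genes above the lowest level, 52.4% were positive. Below the median level lay 13 of the 15 endothelial and 6 of the 11 choroid plexus markers. At unadjusted p under 0.05, 2 endothelial markers (means 0.87 and 2.30 CPM) and no choroid plexus marker were higher per the authors' deposited table. None was lower. That p was passed as higher by 2.79% of all rows, and by 611 of these 17400 genes. Upper-layer, deep-layer and radial glia markers had medians of 0.12, -0.14 and -0.098, with 1 higher, 2 lower and 1 higher at that p per the authors' deposited table. No matched marker sat at the lowest level. Summed mean levels were 107 CPM for endothelial markers, of which Slco1c1 alone gave 79.7, and 122 CPM for microglia markers, without a value per group. Endothelial cells and microglia do not arise from the electroporated progenitors. How far the sort for live GFP-positive cells left them out cannot be told from these values. The part of other cell types in the values of semaphorins and plexins was not tested.

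**Figure D4:**
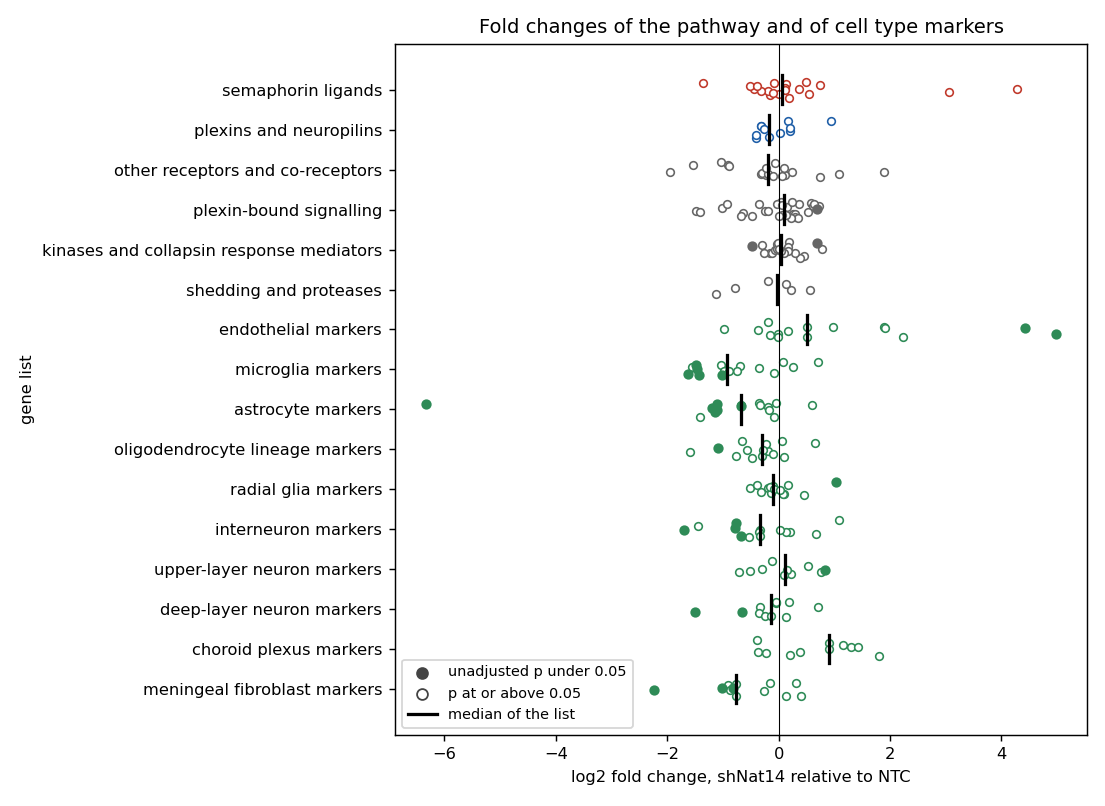
Log2 fold change, shNat14 relative to NTC, of each gene (points) in the ligands, the receptors, the 4 other pathway lists and the 10 cell type marker lists; filled points have an unadjusted p under 0.05 and black bars are medians. The ligand and receptor rows hold no filled point and have medians of 0.054 and -0.17, while the microglia and astrocyte rows have medians of -0.93 and -0.67.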

How the data were processed

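The measurement was RNA sequencing of sorted cortical cells, 3 shNat14 and 3 NTC libraries grouped by the sample titles. The file is a table of the authors' comparison with a log2 fold change, a mean log2 CPM, a p-value and an adjusted p-value (false discovery rate) per gene, per the file headers. These log2 values and both kinds of p-value are as the authors deposited them. Benjamini-Hochberg adjustment of the deposited p-values over all 21937 rows gave the deposited adjusted p within 4.05e-05. Named in the submitters' processing notes, without their roles, are DESeq, HTSeq 0.5.4p1, SAMtools 0.1.19, TopHat2 2.0.8 and the build hg19. That build is human while the table holds mouse symbols, so the build is unresolved. Which test, normalization and prior count the authors used is not given in the sources used here. Depth per library is unknown.

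Members were found by symbol, and every member is named. For pathway lists up to 2 genes with the smallest p per list were named. Dpysl2, Crmp1, Agt and Slco1c1 were chosen after their values were seen. A marker of the upper-layer list is not reported here and was left out of that list. Members and lists were chosen with earlier results of these data known. Exon lengths were the union of exons of protein-coding transcripts in the GENCODE M21 basic set, and promoter windows came from RefSeq (GRCm38.p6). The implied standard error is the absolute log2 fold change divided by the normal quantile of p, from which the 95% interval follows. How well it approximates the authors' test was not tested. Alternatives were other thresholds, adjustments over fewer genes, level filters, re-centred fold changes and other divisions of ligands and receptors. Python 3.11.15, numpy 2.4.6, pandas 2.3.3, scipy 1.17.1 and matplotlib 3.10.9 were used.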

Additional observations from a re-analysis of the deposited data

How the results depend on the processing

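No member was called per the authors' deposited table at adjusted p under 0.1 or 0.01. Given the deposited adjusted p of the members, no other outcome was possible there. The deposited p-values were also adjusted again over the 17400 genes above the lowest level and over the 10969 at or above the median level. No member was called there either (smallest member values 0.795 and 0.875). At unadjusted p, 3 members passed at 0.1 and none at 0.01, the latter fixed by none passing at 0.05. At or above the median level the ligand median was 0.11, the receptor median -0.26 and their difference 0.37. Re-centring the fold changes of all members on the median of all genes at that level (0.032) gave medians of 0.022 and -0.20. With class 3 ligands only, the ligand median was 0.36 and the difference 0.53. That median is the value of Sema3f (p = 0.605 in the authors' test), and 4 of the 7 class 3 ligands lay below the median level. With membrane-bound ligands only, the ligand median turned to -0.0011, the value of Sema5b, and the difference was 0.17. For the membrane-bound ligands at or above the median level it was 0.054. The sign of the ligand median thus depended on which ligands were counted, with the membrane-bound median close to 0. Counting Plxdc1 and Plxdc2 as receptors left the receptor median of all members at -0.17, as it had to, since they lie on either side of it. No member sat at the lowest level, so including that level could change nothing. The count of 3 other pathway genes at unadjusted p under 0.05 was also 3 at or above the median level, a setting added once the data had been seen. No paired analysis was possible because single libraries have no values in the table, and for that reason no fit without a replicate was run. Without depth or values per library, no counting interval can be given and the part of a single library in any value was not tested.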

Other observations

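A row named Nrp is also present, a symbol that RefSeq lists both as a gene of its own on chromosome 12 and as an older symbol of Nrp1. It was not counted among the neuropilins, and its log2 fold change was 0.00017 at a mean log2 CPM of 2.99 per the authors' deposited table (p = 1).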
